A study of Mus musculus with 7 samples.

Results

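The genes described here are targets of the transcription factor ATF4 and the aminoacyl-tRNA synthetases, measured in newborn mouse liver with and without glycerol kinase. The list holds 38 genes, chosen as stress factors and effectors, amino acid transporters and synthetases. A probe set that names 1 of them as its only gene was present for 37 of the 38, among 18194 genes named in this way and in 74 of the 45101 probe sets. Dars was the gene without such a probe set and is not analysed here. The arrays were Affymetrix Mouse Genome 430 2.0 arrays, each hybridised with RNA of 1 liver. Livers came from male C57BL/6J pups on day of life 1, 3 of them wild type and 4 knockout for glycerol kinase (Gyk), and the wild type pups were littermates of knockout mice. The labels do not say how the knockout allele was made. Pups of this age show no symptoms yet, so the comparison asks how these transcripts stand ahead of the disease. As a check of the tissue, the hepatocyte marker Alb lay between 26465 and 39072 in the 7 arrays.

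ATF4 is a leucine zipper protein whose translation rises when the initiation factor eIF2 is phosphorylated, as happens when amino acids run short, when unfolded proteins load the endoplasmic reticulum or when heme is lacking. It induces genes of amino acid uptake, asparagine synthesis and tRNA charging, together with the stress factors Ddit3, Atf3 and Trib3. It binds composite DNA elements that join a C/EBP and an ATF site. The liver is a main site of this response in fasting and amino acid imbalance. tRNA synthetases attach each amino acid to its tRNA, and many cytosolic ones are ATF4 targets while most mitochondrial ones are separate genes.

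The core letters of the composite element are shown first because several members carry them close to the start of transcription. The motif TGATGNAA, read on both strands (its reverse complement is TTNCATCA), was searched in windows of 250 bases before to 50 bases after the gene start from RefSeq, build GRCm38.p6. A window was found for 27 of the 37 members. The motif was held by 12 of their 30 windows, against 3.97% of all 32851 windows. These windows belong to 12 of the 27 genes. These 12 were Asns, Trib3, Chac1, Atf3, Nupr1, Vldlr, Slc7a11, Aars, Gars, Iars, Tars and Yars. The ER stress element, CCAAT and CCACG with 9 bases between them, also read on both strands, was found in 0 member windows and in 0.119% of all windows, so the motifs did not overlap in any member. The stretches below show a few, 5′ to 3′ on the strand of the gene, with the motif in capitals.
Asns: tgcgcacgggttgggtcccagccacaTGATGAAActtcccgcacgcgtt
Trib3: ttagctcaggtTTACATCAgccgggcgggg
Chac1: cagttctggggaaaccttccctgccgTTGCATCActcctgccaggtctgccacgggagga
Slc7a11: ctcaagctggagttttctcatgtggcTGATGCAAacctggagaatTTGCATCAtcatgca
Gars: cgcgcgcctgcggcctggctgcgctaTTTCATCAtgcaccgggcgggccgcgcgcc
Tars: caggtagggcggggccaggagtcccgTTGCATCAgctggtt
Iars: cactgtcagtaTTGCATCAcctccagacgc

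Asns, Trib3, Gars and Tars are printed because their knockout and wild type livers did not overlap in level, Chac1 and Slc7a11 because they are classical targets, and Iars because its log2 fold change was 0.00. On build GRCm38.p6 the stretch of Asns is chr6:7693210-7693258 on the minus strand and that of Trib3 is chr2:152344028-152344057 on the minus strand. That of Chac1 is chr2:119351023-119351082 on the plus strand and that of Slc7a11 is chr3:50443646-50443705 on the minus strand. Gars lies at chr6:55037945-55038000 on the plus strand, Tars at chr15:11399659-11399699 on the minus strand and Iars at chr13:49682126-49682155 on the plus strand. The motif begins 23 bases before the start in Asns, 193 before in Chac1, 66 and 47 before in Slc7a11, 30 before in Gars and 15 before in Tars, and at base 15 after it in Trib3 and base 8 in Iars. Of the 9 tested genes whose window held the motif 7 had a lower mean in knockout, with a median log2 fold change of -0.24. Of the 15 tested genes whose window did not hold it 11 did, with a median of -0.14. Among all named genes 50.1% were lower by their brightest probe set.

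Most members were lower in knockout liver, few of them past the test. Each gene is represented by its brightest probe set, the one with the highest mean over the 7 arrays. Of the 37 genes 34 passed the filter on low values and were tested with limma across all 22518 tested probe sets. A log2 fold change is knockout minus wild type on the log2(intensity + 16) scale, given with its standard error. Of the 34 tested members 27 had a lower mean in knockout and 7 a higher one, whereas 50.1% of all named genes were lower by their brightest probe set and 54.2% of all tested probe sets were. The median log2 fold change of the members was -0.23, beside -0.03 over all tested probe sets and 0.00 over the brightest probe sets of named genes. Under median scaling 25 members were lower, and under quantile normalization 28 were.

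Past a Benjamini-Hochberg adjusted p of 0.05 in limma, 2 members fell (Slc7a5 and Eif4ebp1) and 1 rose (Atf5). That is 3 of 34. Over the brightest probe sets of all named genes 4.77% were called, 1.67% lower and 3.10% higher, and over all tested probe sets 4.24%, 1.89% lower and 2.35% higher. The groups did not overlap in 13 members, 12 of them lower and 1 higher in every knockout liver. Among named genes 22.1% had groups that did not overlap, 10.5% lower and 11.7% higher in knockout, and among all tested probe sets 21.1% did, 11.8% lower and 9.40% higher. In bulk liver, fewer cells of a type and less RNA per cell cannot be told apart. At an unadjusted p under 0.05 there were 12 members of 34, beside 22.5% of named genes and 21.7% of all tested probe sets. The count of called members was 1 without wild type 1, without knockout 1, without knockout 2 or without knockout 4, and 0 without wild type 3, where 127 probe sets were called in all. It was 2 without wild type 2 and 4 without knockout 3.

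**Figure D1:**
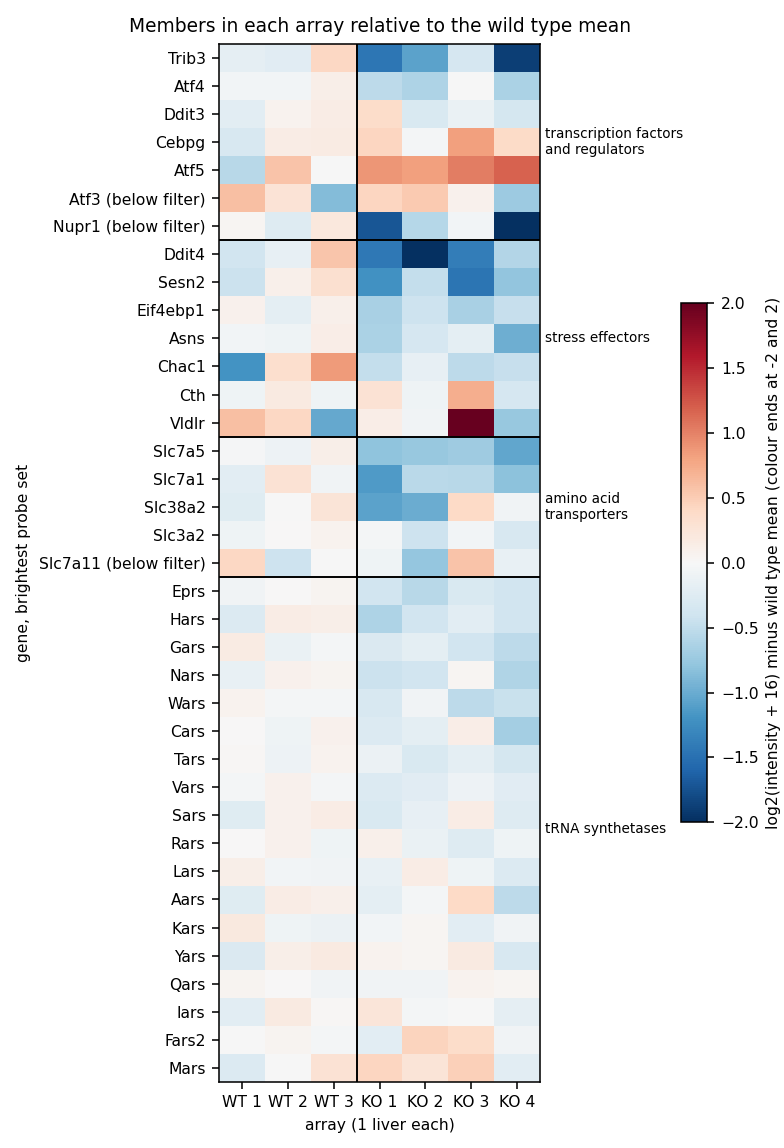
Level of each of the 37 members in each of the 7 arrays, as log2(intensity + 16) minus the mean of the 3 wild type arrays of that gene, grouped by role; red is above and blue below the wild type mean, and colours end at -2 and 2. Slc7a5 is blue in all 4 knockout livers and Atf5 is red in all 4, while most synthetases are pale.

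**Figure D2:**
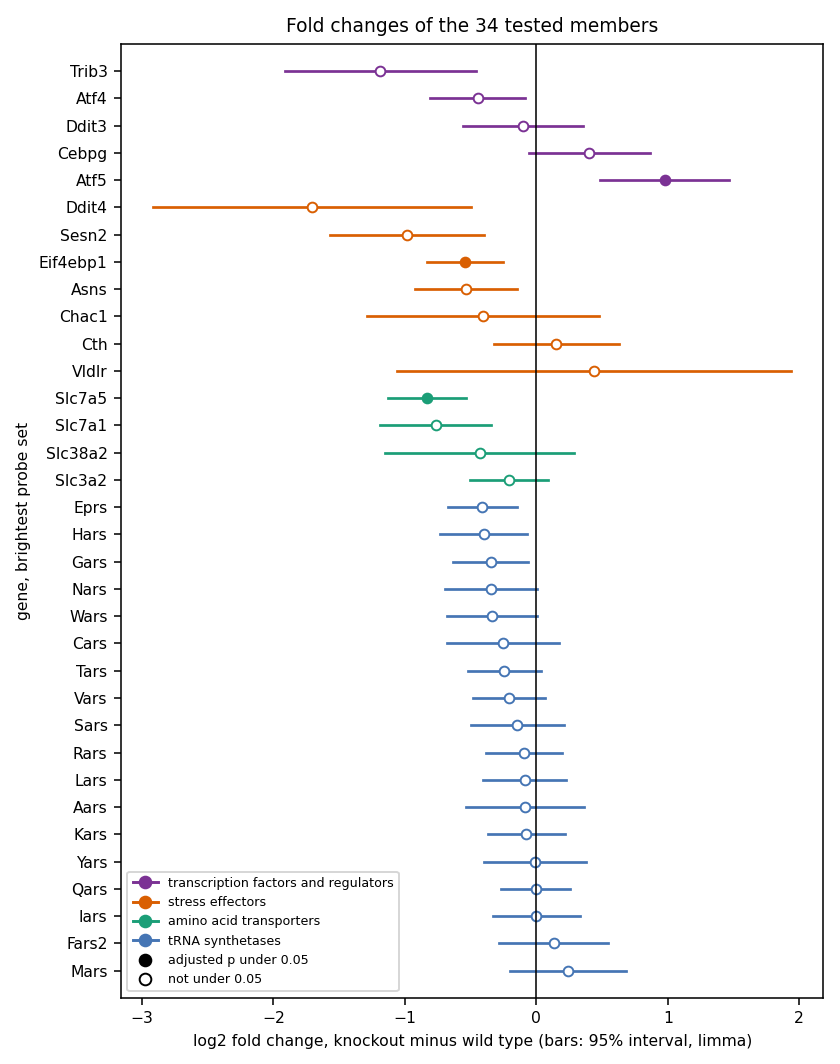
Log2 fold change of each of the 34 tested members (x axis, knockout minus wild type) with its 95% interval from limma; filled points passed an adjusted p of 0.05. Only Slc7a5, Eif4ebp1 and Atf5 are filled. Most intervals of the synthetases span 0, and those of Eprs, Gars and Hars lie below it.

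Of 5 tested transcription factors and regulators 1 rose, Atf5, and 0 fell by their brightest probe set, with a median log2 fold change of -0.10. Over all named genes 3.10% were called higher and 1.67% lower. Atf5 encodes a leucine zipper factor of the ATF4 family that takes part in the mitochondrial stress response and is abundant in liver. Its intensities were 4161, 9089 and 6099.6 in wild type and 11346, 10789.7, 12528 and 13852 in knockout livers. Every knockout value lay above every wild type value, and wild type 1 was the lowest of all. Its log2 fold change was 0.98 ± 0.22, a 1.97-fold higher level (adjusted p = 0.0397, limma). The probe set of Atf5 is of a kind that can be shared between transcripts. Leaving out wild type 1 gave 0.70, leaving out wild type 2 gave 1.26, and among the 7 runs without 1 array it passed only without wild type 2 (highest adjusted p = 0.148).

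Atf4 itself had intensities of 5252, 5246 and 5964 in wild type and 3809, 3546, 5461 and 3532 in knockout. Knockout 1, 2 and 4 were below every wild type liver, and knockout 3 was within their range. Its log2 fold change of -0.45 ± 0.16 did not pass (adjusted p = 0.149, limma). Atf4 passed in 1 of 18 alternatives, without knockout 3 at -0.59 (adjusted p = 0.0231), and the highest adjusted p was 0.404. A dimmer tested probe set of Atf4 stood at -0.73 (adjusted p = 0.123). ATF4 is controlled mainly at translation, so its transcript does not measure its protein. Within each array the log2 ratio of Atf5 to Atf4 was 0.16 ± 0.57 in wild type and 1.58 ± 0.32 in knockout (SD, n = 3 and 4). The groups did not overlap (exact two-sided permutation p = 0.0286, the smallest that 35 splits allow, and 0.0571 when adjusted over the 2 ratios computed, both picked after the values were seen).

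Trib3 encodes a pseudokinase that ATF4 and DDIT3 induce and that in turn restrains ATF4. Its intensities were 482, 465 and 732 in wild type against 191, 252, 429 and 137 in knockout, without overlap, and knockout 3 stood closest to the wild type livers. By the brightest probe set Trib3 stood at -1.19 ± 0.33 (adjusted p = 0.0727, limma) and did not pass, whereas the other probe set fell, at -0.97 ± 0.19 (adjusted p = 0.0245). That call held without wild type 1, knockout 1 or knockout 3 and was lost without any other array (highest adjusted p = 0.138). It was also lost without a filter and with the replicate block. Both probe sets are of a kind that can be shared between transcripts. Among the 7 runs without 1 array the brightest probe set passed only without knockout 3, at -1.47 (adjusted p = 0.0173), and its highest adjusted p was 0.264.

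Ddit3, the factor CHOP of prolonged ER stress, had intensities of 403, 498 and 522 in wild type and 614, 378, 431 and 368 in knockout. The groups overlapped, with knockout 1 the highest liver of all, and the log2 fold change was -0.10 ± 0.20 (95% interval -0.56 to 0.35). Cebpg, a C/EBP partner of ATF4, stood at 0.40 ± 0.21 by its brightest probe set and had 1 other probe set at 0.44 and 1 at -0.25, none past the threshold. Atf3 and Nupr1, which are both induced in stressed cells, lay below the filter. Atf3 was measured at 134, 103 and 37.9 in wild type and 117, 126, 89.2 and 44.0 in knockout. Nupr1 was at 162, 127 and 184 in wild type and 36.6, 99.3, 150.3 and 7.9 in knockout. Nupr1 was lowest in knockout 4 and knockout 1, and its groups overlapped.

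**Figure D3:**
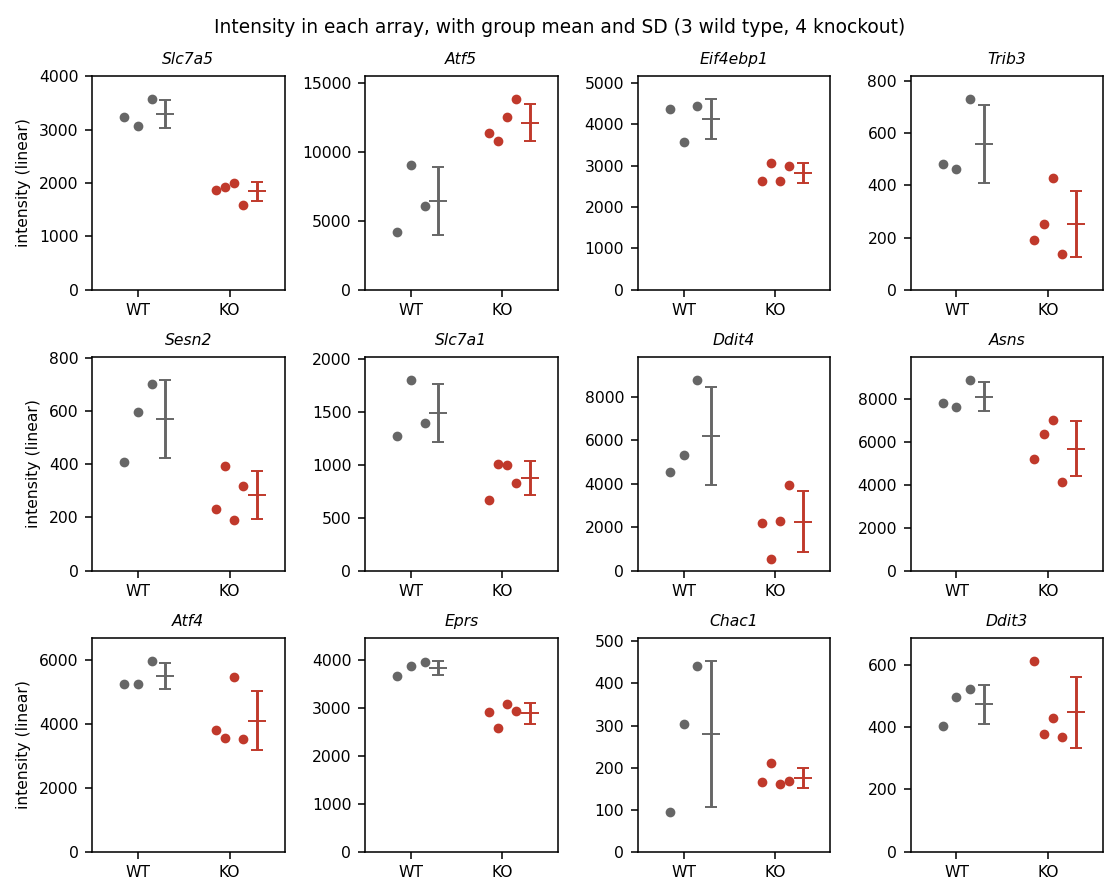
Intensity (linear, y axis from 0) of 12 members in each array, with the group mean and SD beside the points, grey for the 3 wild type and red for the 4 knockout livers. The groups are apart for Slc7a5, Atf5, Eif4ebp1, Trib3, Sesn2, Slc7a1, Ddit4, Asns and Eprs and overlap for Atf4, Chac1 and Ddit3.

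The stress effectors were lower in knockout in 5 of 7 cases, with a median log2 fold change of -0.54, and 1 of them passed. For named genes as a whole 50.1% were lower and 1.67% were called lower. Eif4ebp1 encodes the repressor 4E-BP1, which holds back the cap-binding factor eIF4E. It was measured at 4387, 3584 and 4442 in wild type and 2619.9, 3077, 2625 and 3003 in knockout, with every knockout liver lower. It fell by 0.54 on the log2 scale (SE 0.13, adjusted p = 0.0484, limma), a 1.46-fold lower level. This call did not hold in any of the 7 runs without 1 array (highest adjusted p = 0.211) nor under median scaling (0.0830), and the brightest probe set is of a kind that can be shared between transcripts. The other tested probe set of Eif4ebp1 stood at -0.26 (adjusted p = 0.318).

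Sesn2 and Ddit4 encode inhibitors of the growth kinase mTORC1, the first induced by amino acid shortage and the other by hypoxia, glucocorticoids and fasting. Sesn2 was measured at 409, 597 and 700.1 in wild type and 230.1, 394, 192 and 316 in knockout, without overlap. Its brightest probe set stood at -0.98 ± 0.26 (adjusted p = 0.066, limma), while the other probe set fell, at -0.76 ± 0.18 (adjusted p = 0.0423), a call that held only without knockout 2 among the runs without 1 array (highest adjusted p = 0.194). Ddit4 was measured at 4548, 5312 and 8783 in wild type and 2214, 532, 2289 and 3966 in knockout. Knockout 2 was the lowest and knockout 4 came closest to wild type. Its log2 fold change of -1.71 ± 0.54 was the lowest among the members, but the spread between livers was wide and it did not pass (adjusted p = 0.105, limma). It was -1.13 without knockout 2.

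Asns, the asparagine synthetase and a standard readout of ATF4, was measured at 7824, 7641 and 8909 in wild type and 5199.8, 6400.4, 7044 and 4132 in knockout. Every knockout liver was lower, with knockout 3 nearest to wild type and knockout 4 farthest. Asns stood at -0.54 ± 0.17 (adjusted p = 0.111, limma), and its other probe set stood at -0.69 (adjusted p = 0.0925), so neither passed. Chac1, which degrades glutathione, varied widely among wild type livers, at 94.8, 304 and 440.4, and stood at 165, 211, 159.9 and 168 in knockout, so the knockout values lay inside the wild type range. Chac1 stood at -0.41 ± 0.40, with a 95% interval of -1.29 to 0.48. Cth, which makes cysteine from cystathionine, stood at 0.15 ± 0.21, with its highest level in knockout 3. Vldlr, a lipoprotein receptor, was at 141, 119.9, 778 and 68.4 in knockout against 201, 176 and 54.9 in wild type. Knockout 3 alone exceeded the wild type range, and the log2 fold change of Vldlr was 0.44 ± 0.67.

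All 4 tested amino acid transporters had lower means in knockout, with a median log2 fold change of -0.60, and 1 of them fell. Beside this, 50.1% of named genes were lower and 1.67% were called lower. Slc7a5 encodes LAT1, the exchanger that imports leucine and other large neutral amino acids. It was measured at 3244, 3064 and 3573 in wild type and 1868, 1932, 1995 and 1590.4 in knockout livers. The knockout livers lay close together and well under the wild type livers. Slc7a5 fell by 0.83 on the log2 scale (SE 0.13, 95% interval -1.13 to -0.54), a 1.78-fold lower level (adjusted p = 0.0115, limma). It passed in 6 of the 7 runs without 1 array and missed without wild type 3 (adjusted p = 0.0810, log2 fold change -0.77).

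Slc3a2 encodes the heavy chain 4F2hc that carries LAT1 to the cell surface. It was measured at 4267, 4577 and 4789.5 in wild type and 4441, 3386, 4370.1 and 3614 in knockout, with overlap, and its log2 fold change was -0.21 ± 0.13 (adjusted p = 0.394, limma). The log2 ratio of Slc7a5 to Slc3a2 within an array was -0.46 ± 0.10 in wild type and -1.09 ± 0.19 in knockout (SD, n = 3 and 4), a difference of -0.62. Every knockout ratio lay below every wild type ratio, and the exact two-sided permutation p was 0.0571 over 35 splits. The pair was picked after its values were seen, with Slc7a5 called and Slc3a2 not, so this p is not an independent test.

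Slc7a1 encodes CAT1, an importer of arginine and lysine that is rare in adult hepatocytes. It was measured at 1279, 1806 and 1401 in wild type and 665, 1008, 999 and 827 in knockout, without overlap. Its log2 fold change of -0.77 ± 0.19 had an adjusted p of 0.0518 in limma and so did not pass. Slc7a1 passed in 2 of 18 alternatives, and the highest adjusted p was 0.181. These 2 were without knockout 3 (adjusted p = 0.0487) and where only probe sets above the 75th percentile were tested (0.0403). Its other tested probe set stood at -0.63 (adjusted p = 0.0887). Slc38a2, the SNAT2 importer of small neutral amino acids, was at 4817, 5654 and 6839 in wild type and 2718, 2864, 7543 and 5435 in knockout. Knockout 1 and 2 were below every wild type liver while knockout 3 was above them all, and the log2 fold change was -0.43 ± 0.32. Slc7a11, the cystine importer xCT, was at or under an intensity of 34.4 in every array and below the filter.

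Of 18 other amino acid transporters 1 fell and 0 rose, with a median of 0.02, beside 4.77% of named genes called in either direction. Slc1a5, a glutamine importer, fell by 0.91 (SE 0.22, adjusted p = 0.0465, limma). Its call was lost without any array other than knockout 2 or knockout 3 (highest adjusted p = 0.189). It was also lost under median scaling, without a filter, without a trend in eBayes and with the replicate block. A dimmer probe set of Slc1a5 stood at -0.57 (adjusted p = 0.203), with groups that overlapped. Slc7a2, the cationic amino acid transporter of hepatocytes, was at 11122 ± 639 in wild type and 6443 ± 1916 in knockout (SD, n = 3 and 4). Its brightest probe set stood at -0.83 ± 0.21 (adjusted p = 0.0518, limma), and a dimmer one fell, at -0.87 ± 0.18 (adjusted p = 0.0299). That call held without knockout 1, 3 or 4 and was lost without any other array (highest 0.149). The remaining probe sets of Slc7a2, at -0.68 (adjusted p = 0.383) and -0.23 (0.762), had groups that overlapped. The hepatocyte transporters Slc38a3 at 0.04 and Slc38a4 at 0.47 did not pass.

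Markers of some other cells also had lower values beside these transporters. Among named genes 50.1% were lower by their brightest probe set and 1.67% were called lower. Of 9 tested erythroid markers, with 10 of 12 listed genes on a named probe set, all 9 were lower and 3 fell (Slc4a1, Rhag and Trim10), while under median scaling 8 were lower and these 3 did not pass. Without 1 array Slc4a1 passed in 2 of 7 runs and Rhag and Trim10 in 1 each. The erythroid summed intensity ran from 83161 to 95568 in wild type and from 67971 to 75269 in knockout. All 4 tested proliferation markers were lower, with Rrm2 past the threshold, at summed intensities of 34097 to 37477 against 21590.0 to 28099. The Rrm2 call was lost under median scaling, without a filter, without a trend in eBayes and in 4 of the 7 runs without 1 array. All 5 endothelial markers were lower, or 4 without knockout 3, and 0 passed, at 12423 to 14905 against 6756 to 12089. Slc7a5, Slc7a1 and Slc1a5 are known to be expressed in dividing and erythroid cells, and the part of these cells in their fall or lower means was not tested. The sums of hepatocyte markers overlapped between groups, at 118039 to 129124 in wild type and 115163 to 164283 in knockout, and those of macrophage, neutrophil, B cell and stellate cell markers overlapped as well. By gene, all 4 B cell, 5 of 6 stellate and all 5 hepatocyte markers were higher in knockout, the last only 1 without knockout 3. Of macrophage markers 6 of 8 were lower, or 3 without knockout 3, and of neutrophil markers 6 of 7. None of these passed. Of the T cell list 1 gene was tested and did not pass, and the sum over its 3 measured genes was 225 to 241 in wild type and 101 to 174 in knockout. No measured marker was at 0. Hba-a1, a globin gene, lay below the filter at 6.8 to 82.3 on the brightest probe set that names it alone. The erythroid markers Alas2 and Slc4a1 had wild type means of 14875 and 22356, so this dim probe set is not taken as a measure of globin level.

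No synthetase passed by its brightest probe set, and the differences were small. Of 18 measured, 15 had a lower mean in knockout, beside 50.1% of named genes, and 0 passed, beside 4.77%. An unadjusted p under 0.05 was found for 3 of the 18, beside 22.5% of named genes. Their median log2 fold change was -0.12, and they ranged from -0.41 for Eprs to 0.24 for Mars. Eprs, the enzyme that charges both glutamate and proline and sits in the multisynthetase complex, was measured at 3664, 3865 and 3960.1 in wild type and 2918, 2588, 3086 and 2935 in knockout. Every knockout liver was lower and both groups were tight. Its log2 fold change by the brightest probe set was -0.41 ± 0.12 (adjusted p = 0.078, limma). All 4 tested probe sets of Eprs were lower, between -0.58 and -0.37, and 1 of them, at -0.58 ± 0.14, fell at an adjusted p of 0.0494 that held neither in any of the 7 runs without 1 array (highest adjusted p = 0.223) nor under median scaling.

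The other synthetases without overlap between groups were Gars, Wars, Tars and Vars, which charge glycine, tryptophan, threonine and valine. With Eprs, 5 of the 18 were lower without overlap, beside 10.5% of named genes lower and 22.1% in either direction. Gars was measured at 5181, 4177 and 4500.1 in wild type and 3766, 4014, 3526 and 3197 in knockout and stood at -0.35 ± 0.13. Wars was at 960.5, 884 and 887 against 728, 869, 628 and 664, with a log2 fold change of -0.34 ± 0.16. Knockout 2 lay just under the lowest wild type liver. Tars was at 2569, 2348 and 2646 in wild type and 2326, 2032, 2186 and 1974 in knockout, with a log2 fold change of -0.24 ± 0.12. Vars was at 1898, 2085 and 1904 in wild type and 1615, 1674, 1829 and 1679.9 in knockout, with a log2 fold change of -0.21 ± 0.12. These 4 genes had adjusted p values from 0.155 to 0.364, and knockout and wild type values nearly touched in Tars.

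Hars, for histidine, stood at -0.40 ± 0.15 and Nars, for asparagine, at -0.34 ± 0.16, with overlap in knockout 3 for both. Cars, for cysteine, stood at -0.25 ± 0.19 and Sars, for serine, at -0.14 ± 0.16. For several enzymes the estimate lay near 0, with an interval on both sides of it. Qars, for glutamine, had a 95% interval of -0.27 to 0.26, Iars, for isoleucine, -0.33 to 0.33, Kars, for lysine, -0.37 to 0.22, Rars, for arginine, -0.38 to 0.20, Lars, for leucine, -0.40 to 0.23 and Yars, for tyrosine, -0.40 to 0.38. Aars, for alanine, had the widest of these intervals, at -0.54 to 0.36. Mars, for methionine and named Mars1 in the annotation, was the cytosolic enzyme with the highest change, at 0.24 ± 0.20 (adjusted p = 0.524, limma).

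Fars2 encodes a mitochondrial enzyme only, unlike the other synthetases of the list, which are cytosolic or come from genes that serve both compartments. Its brightest probe set stood at 0.13 ± 0.19 and its other probe set at -0.73 ± 0.20 (adjusted p = 0.0740), so its direction depends on the probe set. The 17 other synthetases had a median of -0.14, or -0.08 under median scaling and -0.24 without knockout 3. Beside them, 14 further mitochondrial synthetases were tested from a list of 16. Their median log2 fold change was 0.34, with 11 higher and 3 lower in knockout, and it was 0.40 under median scaling and 0.27 without knockout 3. None of the 14 passed in limma, and 4 had an unadjusted p under 0.05, beside 22.5% of named genes. Nars2 stood at 0.56 ± 0.16 (adjusted p = 0.0868, limma), Vars2 at 0.49 ± 0.18 (0.148) and Ears2 at -0.41 ± 0.16 (0.175). The mitochondrial Hars2 was at 0.46 where the cytosolic Hars was at -0.40. The difference between both sets of enzymes was not tested. Of 7 proteins of the synthetase complex and other synthetase subunits 0 passed, and their median was -0.05, or 0.01 under median scaling and 0.02 without knockout 3. The cytosolic phenylalanine enzyme, built of Farsa at 0.19 and Farsb at -0.10, was among them.

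**Figure D4:**
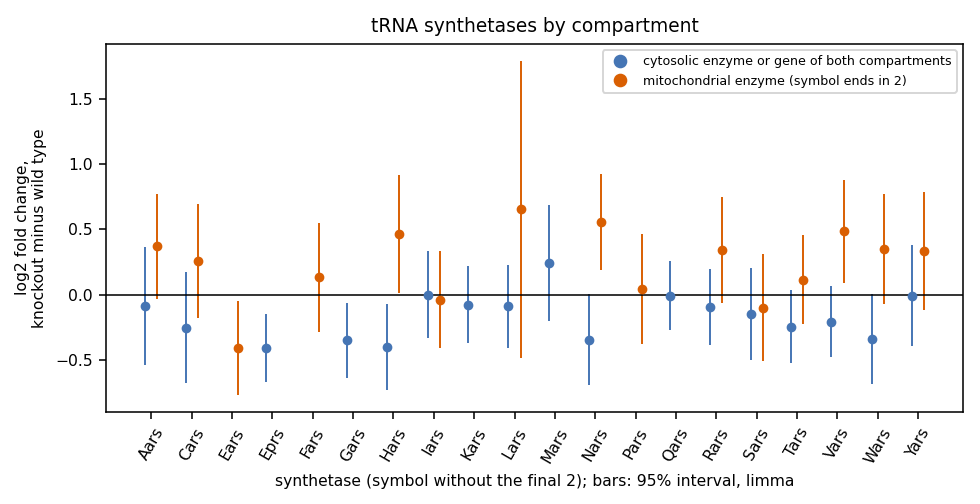
Log2 fold change (y axis, knockout minus wild type) of each tested synthetase with its 95% interval from limma, blue for cytosolic enzymes or genes that serve both compartments and orange for mitochondrial enzymes. Most orange points lie above 0, at a median of 0.34 without Fars2, and most blue points below it, at -0.14; none passed the test.

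Probe sets of 1 gene mostly pointed the same way. Of 18 members with several tested probe sets 15 had all of them on 1 side of 0, and Cebpg, Fars2 and Iars did not. Of 58 tested member probe sets 50 were lower and 8 higher, 5 fell and 1 rose past the threshold, next to the 1.89% and 2.35% given above. The 5 that fell belong to Slc7a5, Eif4ebp1, Trib3, Sesn2 and Eprs. Probe sets of 1 gene share their RNA and are not independent.

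**Figure D5:**
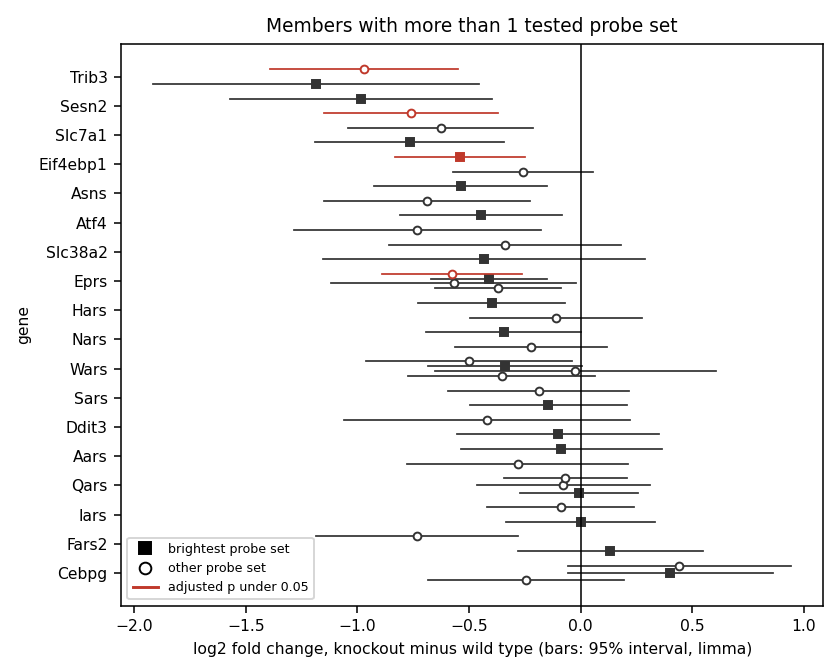
Log2 fold change (x axis, knockout minus wild type) of every tested probe set of the 18 members with more than 1, with 95% intervals from limma; squares are the brightest probe set of the gene and red marks an adjusted p under 0.05. In Trib3, Sesn2 and Eprs 1 dimmer probe set passed and the brightest did not (the other 2 dimmer ones of Eprs did not either), and in Cebpg and Fars2 the probe sets lie on both sides of 0.

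Livers of 1 group differed among themselves in these genes. Knockout 3 was the highest knockout liver for 18 of 34 members, against 23.6% of all tested probe sets, and knockout 4 was the lowest for 16, against 21.4%. Wild type 1 was the lowest wild type liver for 18 members, against 36.8%, and wild type 3 the highest for 18, against 28.9%. The median member stood at -0.27, -0.20, -0.09 and -0.36 relative to the wild type mean in knockout 1, 2, 3 and 4 on the log2 scale. All 4 were under it, knockout 3 least. Knockout 3 also had the highest 3′ to 5′ ratio of all 7 arrays in each of 4 control transcripts, for example 11.1 for the transferrin receptor against 7.22 to 8.24 elsewhere. The part of that in the values of the members was not tested. Without knockout 3, 29 members were lower.

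In other genes of the pathway, 3 of 25 tested fell and 0 rose, from a list of 32, beside 1.67% and 3.10% of named genes. The median of these 25 was -0.01, or 0.05 under median scaling. Without knockout 3 it was -0.13, where 14 were lower and 10 higher. Gadd45a, a growth arrest gene, fell by 1.26 on the log2 scale (SE 0.21, adjusted p = 0.0122, limma). Gpt2, a mitochondrial alanine transaminase induced by ATF4, stood at 1732 ± 310.2 in wild type and 759 ± 191 in knockout (SD, n = 3 and 4). By this brightest probe set it fell, with a log2 fold change of -1.19 ± 0.21 (adjusted p = 0.0175, limma). That probe set and a dimmer one that fell, at -1.03 (0.0317), are of a kind that can be shared between transcripts. The remaining probe sets of Gpt2, at -0.52 (0.107) and -0.41 (0.189), did not pass. Ppp1r15a, or GADD34, which directs the removal of phosphate from eIF2, fell by 0.46 (SE 0.11, adjusted p = 0.0465). Gadd45a failed without wild type 2 or 3 (highest adjusted p = 0.0714) and Gpt2 without wild type 2 or 3 or knockout 4 (0.102). Ppp1r15a failed without any array other than knockout 1 or knockout 3 (0.176). It also failed under median scaling, without a filter, without a trend in eBayes, with shared probe sets left out and with the replicate block.

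Of the 4 kinases that phosphorylate eIF2, none passed by its brightest probe set. Eif2ak3, or PERK, was at 0.14 ± 0.22, Eif2ak4, or GCN2, at -0.32 ± 0.20, and Eif2ak2, or PKR, at 0.20 ± 0.29. Eif2ak1, the heme-regulated kinase of red cell precursors, was at -0.38 ± 0.12 (adjusted p = 0.11, limma), and 1 of its dimmer probe sets fell, at -1.10 ± 0.16 (adjusted p = 0.0090), and missed only without wild type 3 (0.0639) among the runs without 1 array. The serine synthesis enzymes Phgdh at -0.38, Psat1 at 0.27 and Psph at 0.12 did not pass.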

How the data were processed

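The deposited values are linear intensities, 1 per probe set and array, made by the authors with GCOS, per the submitters' processing notes; its version and the probe summary are not given in the sources used here. Every array had the same mean of 500.003 after its lowest and highest 2% were left out, so total messenger RNA cannot be compared. Array medians ran from 92.7 to 108.3, between 35.4% and 39.4% of values lay under 50, and the number of arrays limits the precision.

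After 64 control probe sets were left out, probe sets with a mean of log2(intensity + 16) above the median were kept, without further scaling. Knockout and wild type were compared with limma 3.58.1 in R 4.3.3 (eBayes with a trend, no covariates), and adjusted p values cover all 22518 probe sets. Errors of intensities are SDs over 3 and 4 livers. Dim genes have understated fold changes. Names come from the platform annotation, which gave 34958 probe sets 1 symbol, 932 several and 9211 none; promoters come from RefSeq. Glycerol kinase itself is not reported here, so genotypes were not checked by it.

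The members and lists were chosen with earlier results of these data known. Values in every array are given for members that were called, whose groups did not overlap, or that are Atf4 or Ddit3; a few more are shown so, by choice after their values were seen (Atf3, Nupr1, Chac1, Vldlr, Slc3a2 and Slc38a2); of other lists, called genes or up to 3 of smallest p are named, and further genes were named after their values were seen. Alternatives covered offset, scaling, filter, variance model, probe set choice, threshold, a replicate block and each array left out.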

Additional observations from a re-analysis of the deposited data

How the results depend on the processing

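The number of called members, 3, was 2 to 4 under offsets of 1 and 64, median scaling, quantile normalization, the filter at the 75th percentile and the mean of all probe sets. It was 1 without a filter, 1 without a trend in eBayes, 1 with shared probe sets left out, 1 with the replicate block, 6 with the probe set of smallest p and 7 at an adjusted p under 0.1, and ran from 0 to 4 without 1 array. Over all tested probe sets 955 were called, 473 without a filter, 584 without a trend, 611 with shared probe sets left out, 351 with the replicate block and 2032 at 0.1, and from 127 to 1006 without 1 array. The share of calls that were higher was 55.4%, and 71.3% under median scaling, a shift of all fold changes by 0.06. Slc7a5 passed in 16 of 18 alternatives and missed with the replicate block (adjusted p = 0.0582) and without wild type 3. Atf5 passed in 7 of 17 (0.0881 with the block) and Eif4ebp1 in 5 of 18 (0.135 with the block), and Ddit4 passed with it (0.0406). Knockout 4 has no wild type liver of its number, so the block in effect leaves it out. Fold changes with the block equal those without knockout 4, for example -0.76 for Slc7a5 and -2.08 for Ddit4, and only their errors differ. Same-numbered arrays deviated together at r = 0.09, -0.06 and 0.06, and arrays of different number at -0.13 to 0.12. No pairing by number was seen, but so few arrays cannot settle whether the livers were paired. The median of the regulators, -0.10, was 0.40 with the filter at the 75th percentile, where fewer genes were tested. That of the effectors, -0.54, was -0.39 with the replicate block, as without knockout 4, and -0.41 with the mean of all probe sets. Without 1 array the medians ran from -0.34 to -0.03 for regulators, -0.58 to -0.39 for effectors, -0.77 to -0.46 for transporters, -0.24 to -0.10 for synthetases and -0.26 to -0.20 for all members. Between 23 and 29 tested members were lower in knockout in every alternative; this count was added after seeing the data. Of the 15 members refitted under each alternative none reversed, but the direction of Fars2 turned with the choice of probe set, from 0.13 to -0.73. Below the filter, and for changes near the spread between livers, calls are limited by signal over background and by 7 arrays.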

Other observations

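Fgf21, a fasting hormone of the liver that both ATF4 and PPAR alpha can induce, lay below the filter, at 8.2, 7.8 and 16.8 in wild type and 50.7, 103, 88.6 and 119.5 in knockout livers, and every knockout liver was higher. It was named after its values were seen. No fold change is given, because the wild type intensities lie near the offset of 16, which would set its size. Cebpa, the C/EBP factor of mature hepatocytes, stood at 0.73 ± 0.27 (adjusted p = 0.147, limma), with its highest level in knockout 3, and Sepsecs, the enzyme that completes selenocysteine on its tRNA, at 0.49 ± 0.17 (adjusted p = 0.129). Mthfd2, a mitochondrial folate enzyme and ATF4 target, was at 1028, 1492 and 1744 in wild type and 669.8, 715, 1366 and 620.2 in knockout, and knockout 3 alone reached the wild type range, as it did for Atf4.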
